A study of Mus musculus with 4 samples.

Results

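The genes examined were a list of 10 transcription factors of fibroadipogenic progenitors (FAPs) and other fibroblasts. They were Osr1, Osr2, Tcf21, Tcf4, Twist1, Twist2, Tcf7l2, Ebf1, Ebf2, and Hic1. Not every one marks the cells studied here, and Tcf21 was at 0.00982 to 0.287 RPKM in them. They were taken by name, and all 10 were present among the 20027 genes of the table. RNA-Seq had been performed on FAPs sorted from hind limb muscle of male C57BL/6 mice as cells that stained for Sca1 and not for CD31, CD45, or Vcam1, without culture. There were 2 libraries labelled WT, whose titles name Prx1-Cre, and 2 libraries labelled cKO, from Prx1-Cre;Bap1f/f mice. Prx1-Cre acts in the mesenchyme of the limb bud, so Bap1, a nuclear deubiquitinase, is deleted in that lineage from the embryo on and not only in adult FAPs. In the study's methods the mice were sampled in the second week after birth and controls carried the floxed allele without Cre, so the label and the methods give the WT genotype differently. The transcript level of Bap1 does not check the labels, since the deletion removes only some exons. Its RPKM was 13.95 and 12.9 in the libraries labelled WT and 14.2 and 15.3 in those labelled cKO, and every direction below rests on the labels.

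FAPs are the interstitial mesenchymal cells of skeletal muscle. They descend from the lateral plate mesoderm of the limb and can form fibroblasts, adipocytes, and, in some settings, cartilage and bone. The factors described here belong to several DNA-binding families. Osr1 and Osr2 are odd-skipped zinc finger proteins, and Osr1 marks the embryonic connective tissue cells from which FAPs arise. Twist1, Twist2, and Tcf21 are tissue-restricted basic helix-loop-helix (bHLH) proteins, which bind E-box sequences as dimers with E proteins such as Tcf4. Tcf7l2 is an HMG-box factor that carries the β-catenin signal of the Wnt pathway and has long been used to mark the connective tissue fibroblasts of muscle. It is often called TCF4 in the literature, but it is a different gene from Tcf4, the E protein. Ebf1 and Ebf2 are early B cell factors that also act in adipocyte progenitors, and Hic1 is a zinc finger repressor that marks quiescent mesenchymal progenitors.

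Levels were given by the authors as RPKM, which divides the reads of a gene by the transcript length in kb and by the M reads of the library. The value that stands for no reads placed the depth at 41.4 to 90.4 M reads per library, with WT replicate 1 and cKO replicate 2 the shallow libraries, so 1 RPKM in a transcript of 1 kb stood for 41.4 to 90.4 reads. Defining markers of FAPs were present in every library. Pdgfra, a receptor used to identify these cells, stood at 104.4 and 135.6 RPKM in WT and 69.7 and 51.3 RPKM in cKO. In the fit described below, 5 of 8 FAP markers were lower in cKO, against 6.48% of all tested genes. The summed level of the 8 was 25697 to 27537 RPKM in WT and 12101 to 13310 RPKM in cKO. Most of it came from Col3a1 (16567 and 15075 RPKM in WT, 6057 and 5733 RPKM in cKO) and Col1a1 (6910 and 6640, 3254 and 2212 RPKM). Pdgfrb, Lum, and Dcn did not pass. Dcn was higher in both cKO libraries, at 2973 and 3120 RPKM against 2594 and 2637 RPKM in WT. Markers of other cells moved in the same libraries. The summed level of 6 chondrocyte markers was 19.0 to 19.7 RPKM in WT and 1544 to 1803 RPKM in cKO. Most of it was Sox9 in WT (15.5 and 16.0 RPKM, against 32.9 and 34.5 RPKM in cKO). In cKO most was Col2a1 (1492 and 1294 RPKM, against 1.70 and 2.00 RPKM in WT). The sum of 5 tenocyte markers was 50.2 to 63.8 and 923.6 to 1185 RPKM. That of 6 pericyte and smooth muscle markers was 38.6 to 54.5 and 302.1 to 399.4 RPKM, with 5 of 6 higher. Des did not pass (4.61 and 4.59 RPKM in WT, 3.94 and 3.60 RPKM in cKO). Under each of the 3 rescalings 1 of the 6 was lower, against 1527 to 1818 of all tested genes. The sum of 5 myofiber markers was 52.9 to 71.4 and 19.1 to 19.5 RPKM. Adipocyte markers, with 4 of 4 tested higher, summed to 16.3 to 24.3 RPKM in WT and 57.5 to 70.3 RPKM in cKO, and Schwann cell markers, with 3 of 3 tested higher, to 9.57 to 12.5 and 18.4 to 31.5 RPKM. In the same fit 35.9% of all tested genes were higher. The Schwann calls ended under the 3 rescalings, which left 3 of 4 adipocyte markers higher, against 1769 to 1885 of all 11197 tested genes. The sums of the endothelial list (27.4 to 28.6 and 27.7 to 28.6 RPKM) and of the blood cell list (7.91 to 7.93 and 6.19 to 8.61 RPKM) overlapped between the groups. Within them Kdr, Ptprc, Adgre1, and Cd3e stayed under 1 RPKM in every library. Tek stood at 11.2 to 22.8 RPKM, and Cd68 and Cd79a stood at 2.55 to 5.26 RPKM. Cdh5 rose (limma adjusted p = 0.0111), whereas 3 of the 4 tested endothelial markers had a negative fold change. Among these, Pecam1 (CD31) was at 1.67 and 3.12 RPKM in WT and 0.537 and 1.63 RPKM in cKO. It did not pass (limma adjusted p = 0.0888). Muscle stem cell markers summed to 38.6 to 38.96 RPKM in WT and 49.1 to 64.6 RPKM in cKO, with Pax7 and Myf5 under 1 RPKM throughout, Itga7 higher (adjusted p = 0.00106), and Vcam1 lower (adjusted p = 0.0329). The part of these other cells in the results below was not tested, and in a bulk sample fewer cells of a type and less RNA per cell cannot be told apart.

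Of the 10 factors, Osr1 fell and Tcf4 rose in the libraries labelled cKO, and Tcf21 was too low to test. The other 7 did not pass. The comparison used limma on log2(RPKM + 1) over the 11197 genes that reached 1 RPKM in 2 libraries or more, with Benjamini-Hochberg adjustment and a limit of 0.05, and 9 of the 10 factors passed that filter, each with at least 1 RPKM in all 4 libraries. Thus 1 of 9 was lower, against 6.48% of all tested genes, and 1 of 9 was higher, against 35.9%. In either direction 42.4% of all genes were called. The 2 groups did not overlap for Osr1, which was lower, and for Tcf4 and Osr2, which were higher, against 15.5% of all genes lower without overlap and 56.8% higher without overlap. The median log2 fold change was -0.10 over the 9 factors and 0.27 over all tested genes, and 8 of the 9 lay below the median gene. The median of all genes moved with the scaling of the libraries. It fell to 0.01 with median-ratio scaling, -0.02 with quantile normalization, and 0.00 with cyclic loess normalization, where 8 of the 9 factors had a negative fold change and none but Osr1 (all 3 scalings), Twist2 (quantile and cyclic loess), and Twist1 (quantile) passed. Over all tested genes these 3 scalings gave 1527 to 1818 lower and 1769 to 1885 higher.

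**Figure D1:**
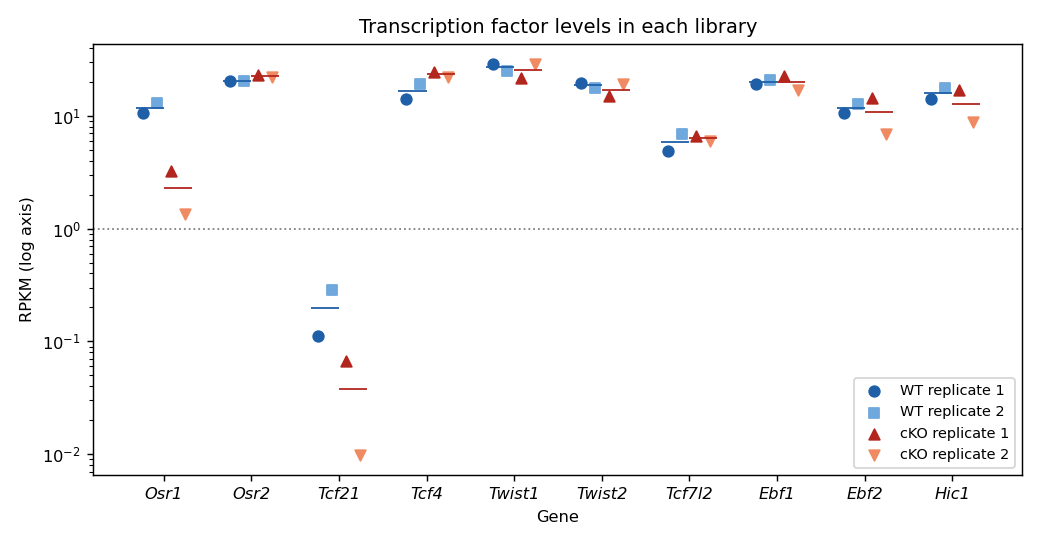
RPKM of each transcription factor (log axis) in the 4 libraries, with 1 symbol per library and a short line at each group mean (n = 2 each); the dotted line marks 1 RPKM. Osr1 falls from 10.6 and 13.0 RPKM in WT to 3.25 and 1.34 RPKM in cKO, Tcf21 lies below 0.3 RPKM throughout, and the WT and cKO symbols of most others lie close together or interleave.

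Osr1 showed the largest difference among the 9 factors. Osr1 (NM_011859; chromosome 12, 9570116 to 9581500, plus strand, GRCm38, 3 exons) was measured at 10.6 and 13.0 RPKM in WT and at 3.25 and 1.34 RPKM in cKO. Both cKO libraries lay below both WT libraries, and the cKO libraries differed from each other by 2.43 times. The mean fell from 11.8 ± 1.74 to 2.29 ± 1.35 RPKM (mean ± SD of 2 libraries each), which is 4.05-fold lower on the RPKM + 1 scale with a 95% interval from 2.60 to 6.30 (log2 fold change -2.02, SE 0.27; limma adjusted p = 0.00194). Only 0.134% of tested genes had a larger fall. The level in the library with the least reads for Osr1, cKO replicate 2, rested on about 112 reads, and that in WT replicate 2 on about 2338. In the ranking of all genes within a library, Osr1 moved from the 79.99 and 82.7 percentile in WT to the 57.2 and 48.6 percentile in cKO. The call held in all 15 alternative fits at the limit of 0.05, with log2 fold changes from -2.45 to -1.59 and adjusted p of at most 0.0244. It did not reach the stricter limit of 1e-05 in the fit of the deposited values.

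Its paralog Osr2, which acts in palate and joint development, did not share this fall. Osr2 (NM_054049; chromosome 15, 35296098 to 35303305, plus strand, 4 exons) stood at 20.2 and 20.5 RPKM in WT and 23.0 and 22.1 RPKM in cKO. The cKO values were both slightly higher, but the log2 fold change of 0.14 had 95% limits of -0.14 and 0.41 (limma adjusted p = 0.373), and its sign turned under all 3 rescalings, to -0.15 with median-ratio scaling, -0.24 with quantile normalization, and -0.23 with cyclic loess normalization. A share within a library does not move when all its RPKM are multiplied by a common factor. Osr1 made up 34.3% and 38.9% of the summed RPKM of Osr1 and Osr2 in WT and 12.4% and 5.71% in cKO, a difference of -27.6 percentage points between the group means. The exact permutation p was 0.333, two-sided, which is the smallest that 2 against 2 libraries allow. Without any single library the difference ranged from -30.9 to -24.2 points.

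**Figure D2:**
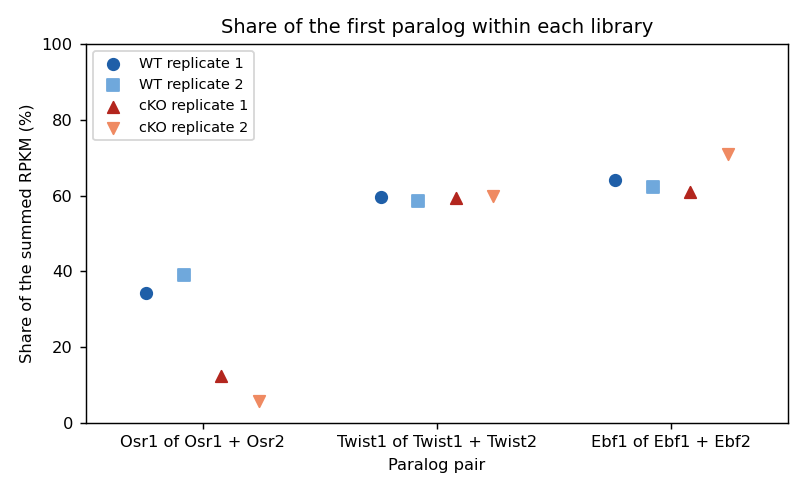
Share of the first paralog in the summed RPKM of each pair (percent, axis from 0 to 100) in the 4 libraries. Osr1 drops from 34.3% and 38.9% in WT to 12.4% and 5.71% in cKO, whereas Twist1 stays between 58.6% and 60.0% and Ebf1 is spread from 61.0% to 71.0%, with both of these values in cKO.

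The Twist proteins are bHLH factors that keep mesenchymal cells in an undifferentiated state in several tissues, and Twist1 was the most abundant of the 10 factors in both groups. Twist1 (NM_011658; chromosome 12, 33957671 to 33959829, plus strand, 2 exons) stood at 29.0 and 24.8 RPKM in WT and 21.8 and 28.6 RPKM in cKO. Twist2 (NM_007855; chromosome 1, 91801461 to 91848028, plus strand, 2 exons) stood at 19.6 and 17.6 RPKM in WT and 14.9 and 19.1 RPKM in cKO. The groups overlapped for both genes, and both were highest in the shallow libraries, WT replicate 1 and cKO replicate 2. For Twist1 the log2 fold change was -0.10 (95% limits -0.48 and 0.28; limma adjusted p = 0.650), and for Twist2 it was -0.13 (95% limits -0.49 and 0.23; adjusted p = 0.531). A fall of up to 1.39-fold for Twist1 and 1.40-fold for Twist2 lay within these limits. Both Twist genes passed as lower with quantile normalization, at -0.49 and -0.50, and Twist2 also with cyclic loess normalization, at -0.50. The proportion of the pair hardly varied. Twist1 made up 59.7% and 58.6% of their summed RPKM in WT and 59.3% and 60.0% in cKO.

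Because the Twist genes varied together over the libraries, the 250 bases before their transcription starts are shown, read from the RefSeq promoter table of build GRCm38.p6, which held 6 of the 10 factors. Capitals mark CCAAT, a common element of promoters, searched on both strands. The element was picked after the sequences were read.
Twist1 (chr12:33957421-33957670, plus strand): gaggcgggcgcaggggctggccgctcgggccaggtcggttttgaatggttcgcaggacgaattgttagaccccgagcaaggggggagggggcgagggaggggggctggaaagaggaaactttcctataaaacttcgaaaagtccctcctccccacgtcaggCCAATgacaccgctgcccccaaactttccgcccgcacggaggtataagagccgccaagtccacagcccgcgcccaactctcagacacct
Twist2 (chr1:91801211-91801460, plus strand): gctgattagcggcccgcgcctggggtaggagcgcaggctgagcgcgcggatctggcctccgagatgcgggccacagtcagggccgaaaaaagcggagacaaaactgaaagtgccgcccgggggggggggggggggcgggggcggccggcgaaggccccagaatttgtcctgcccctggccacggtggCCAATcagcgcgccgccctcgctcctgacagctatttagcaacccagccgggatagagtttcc
Each window held 1 CCAAT, in the same orientation and preceded by GG in both, whereas 33.8% of 32851 promoter windows of this length held at least 1. A window of Hic1 held 2, and Hic1 was higher in the other library of each group, WT replicate 2 and cKO replicate 1. Neither Twist window held an E-box (CANNTG, both strands), which 66.2% of windows held. The windows of Tcf21 and Tcf7l2 held none either. The GC content was 62.4% for Twist1 and 68.8% for Twist2. These matches describe the letters of the windows only.

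The EBF factors and Hic1 differed more between the 2 cKO libraries than between the groups. Ebf1 (NM_007897; chromosome 11, 44617317 to 45008091, plus strand, 16 exons) stood at 18.9 and 20.8 RPKM in WT and 22.6 and 17.0 RPKM in cKO, so the cKO libraries enclosed the WT range. Its log2 fold change was -0.02 (95% limits -0.39 and 0.36; limma adjusted p = 0.946). Ebf2, a factor of adipocyte progenitors (NM_010095; chromosome 14, 67233292 to 67430918, plus strand, 17 exons), stood at 10.6 and 12.7 RPKM in WT and 14.5 and 6.95 RPKM in cKO, again with the WT values inside the cKO range. For Ebf2 it was -0.18 (95% limits -0.85 and 0.49; adjusted p = 0.645). Hic1 (NM_010430; chromosome 11, 75164565 to 75169519, minus strand, 2 exons) stood at 14.1 and 17.7 RPKM in WT and 16.8 and 8.82 RPKM in cKO, where only cKO replicate 2 lay below the WT range. For Hic1 it was -0.34 (95% limits -0.97 and 0.28; adjusted p = 0.330).

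Osr1, Ebf2, and Hic1 were all lower in cKO replicate 2 than in cKO replicate 1, by 2.43, 2.08, and 1.90 times. On the log2(RPKM + 1) scale this difference was larger than that of 98.4%, 99.0%, and 98.4% of all tested genes, whereas for Osr2 it was larger than that of 14.3%. The median difference between the cKO libraries was 0.38 log2 units over the 9 factors and 0.20 over all tested genes, and between the WT libraries 0.24 and 0.13. About 1253 and 1277 reads stood behind Ebf2 and Hic1 in cKO replicate 2. For Ebf2 and Hic1 the call turned on which cKO library was used. Without cKO replicate 1 both were called lower, with log2 fold changes of -0.66 (limma adjusted p = 0.00936) and -0.77 (adjusted p = 0.00473). That fit holds a single cKO library, which is assumed to vary like the WT libraries and other genes, so these p-values do not contain the difference between the cKO libraries. Without cKO replicate 2 they were 0.30 and 0.08, and over all 15 alternatives adjusted p ranged up to 0.905 for Ebf2 and 0.710 for Hic1. Ly6a, which encodes the sorted antigen Sca1, differed between the same libraries in the same direction, with 108.4 RPKM in cKO replicate 1 and 47.0 RPKM in cKO replicate 2, against 216.4 and 119.7 RPKM in WT. Between the WT libraries the orders were opposite, with Ly6a higher in WT replicate 1 and Osr1, Ebf2, and Hic1 higher in WT replicate 2. Osr1, Ebf2, and Hic1 were thus lower in the shallower library of each group. Depth was 46.5 and 89.1 M reads in WT and 90.4 and 41.4 M reads in cKO. The parts of the sort and of depth in these differences were not tested.

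The relatives of these factors were taken as further lists. Ebf3, the third of the EBF genes, was lower in cKO, at 9.18 and 12.4 RPKM in WT and 6.92 and 4.29 RPKM in cKO (log2 fold change -0.85, SE 0.23; limma adjusted p = 0.0204). Its groups did not overlap, and its call ended without the filter on low values and without WT replicate 2, where its log2 fold change was -0.65. Ebf4 had values of 2.01, 2.12, 2.88, and 1.90 RPKM and a log2 fold change of 0.13 that turned negative under the 3 rescalings. Zfp423 and Zfp521, zinc finger proteins that bind EBF factors, did not pass, with log2 fold changes of -0.41 and 0.00. So 1 of 4 genes of that list was lower, against 6.48% of all tested genes, and the other 3 did not pass. Under each rescaling 2 of the 4 were lower, against 1527 to 1818 of all 11197 tested genes, and all 4 had a negative fold change. Hic2, the paralog of Hic1, had a log2 fold change of -0.26 (adjusted p = 0.257). Of the HIC corepressors, Ctbp2 and Ctbp1, which bind a motif of the Hic1 protein, were higher, at 0.61 (adjusted p = 0.00918) and 0.40 (adjusted p = 0.0265). Both calls ended under all 3 rescalings and without WT replicate 1, and that of Ctbp1 also without WT replicate 2 and with the replicate number as a block. Thus 2 of 5 genes of that list were higher, near the 35.9% of all tested genes. Each rescaling gave 0 higher and 1 lower, against 1769 to 1885 higher and 1527 to 1818 lower among all 11197 tested genes. Sirt1 and Mta1 did not pass, with log2 fold changes of -0.15 and 0.32.

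Tcf4 was the other factor to pass. It encodes the E protein E2-2, the dimer partner of tissue-restricted bHLH factors (NM_013685; chromosome 18, 69343356 to 69689079, plus strand, 20 exons). Its level was 14.2 and 19.0 RPKM in WT and 24.6 and 22.1 RPKM in cKO. Both cKO libraries lay above both WT libraries, and the WT libraries differed by 1.34 times. The group means were 16.6 ± 3.43 RPKM for WT and 23.4 ± 1.77 RPKM for cKO (± SD of 2 libraries), a fold of 1.40 with a 95% interval from 1.08 to 1.82 (log2 fold change 0.48, SE 0.16; limma adjusted p = 0.0455). The adjusted p lay just under the limit, at rank 4588 of all genes, and the log2 fold change exceeded that of the median gene by 0.22. The call ended in 7 of 15 alternatives, with adjusted p from 0.0135 to 0.619 over all of them. The log2 fold change was 0.19 with median-ratio scaling, 0.11 with both quantile and cyclic loess normalization, 0.28 without WT replicate 1, and 0.41 if cKO replicate 1 was left out.

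The other E proteins and their Id inhibitors were mixed. Tcf12, the E protein HEB, was at 20.0 and 23.0 RPKM in WT and 38.6 and 33.6 RPKM in cKO (log2 fold change 0.72, limma adjusted p = 0.00552). Tcf3, the E protein of the E12 and E47 isoforms, was at 10.7 and 11.6 RPKM in WT and 14.998 and 10.3 RPKM in cKO, with overlapping groups (log2 fold change 0.15, adjusted p = 0.540). The Id proteins lack a DNA-binding region and trap E proteins in inactive dimers. Id1 was higher, at 25.9 and 41.1 RPKM in WT and 51.9 and 56.0 RPKM in cKO (adjusted p = 0.0265), Id4 was lower, at 8.63 and 8.47 RPKM in WT and 5.29 and 5.24 RPKM in cKO (adjusted p = 0.0113), and Id2 and Id3 did not pass, with log2 fold changes of 0.20 and -0.28. In all, 2 of 6 were higher, near the 35.9% of all tested genes, and 1 was lower, against 6.48%. The calls of Tcf12 and Id1 ended under the 3 rescalings, which kept their sign. The list then held 0 higher and 2 lower with median-ratio scaling, and 0 higher and 1 lower with the other 2 rescalings. Over all 11197 tested genes the rescalings gave 1769 to 1885 higher and 1527 to 1818 lower. The call of Id1 also ended without WT replicate 1 and without the filter, and that of Id4 when either WT library was left out. Among other bHLH factors of mesoderm, Scx, the tendon regulator, rose from 0.856 and 0.957 RPKM to 10.4 and 4.47 RPKM (log2 fold change 2.05, adjusted p = 0.00281), and Msc rose from 4.74 and 7.04 RPKM to 9.04 and 12.2 RPKM (adjusted p = 0.0236), the latter call ending under the 3 rescalings, without the filter, and if WT replicate 1 or cKO replicate 2 was left out. Tcf15 did not pass, with a log2 fold change of -0.18, and Hand1, Hand2, Tcf23, and Tcf24 were too low to test.

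Tcf21, a bHLH factor of fibroblasts in heart, lung, and kidney, was close to the limit of detection. Tcf21 (NM_011545; chromosome 10, 22817281 to 22820174, minus strand, 2 exons) was at 0.112 and 0.287 RPKM in WT and at 0.0666 and 0.00982 RPKM in cKO. Both cKO values lay below both WT values. For its transcript of 1267 bases 1 read in cKO replicate 2 would have given 0.0191 RPKM, so the value there lay under that of a single read, and the other libraries held about 6.60, 32.4, and 7.63 reads. No fold is given. Tcf21 was left out by the filter on low values, and in the fit without that filter Osr1 was the only factor called, so Tcf21 did not pass there.

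Tcf7l2 did not pass. Tcf7l2 (NM_009333; chromosome 19, 55741820 to 55933654, plus strand, 13 exons) stood at 4.86 and 6.92 RPKM in WT and 6.62 and 5.94 RPKM in cKO, with both cKO values inside the WT range. The log2 fold change was 0.10 (95% limits -0.33 and 0.52; limma adjusted p = 0.706) and turned negative under the 3 rescalings, to between -0.18 and -0.16, and to -0.12 without WT replicate 1. Of its family members, Tcf7 alone passed. Tcf7 was at 0.159 and 0.514 RPKM in WT and 2.77 and 1.92 RPKM in cKO (log2 fold change 1.32, adjusted p = 0.00287), a call kept at the limit of 0.05 in all 12 alternative fits that tested it. Lef1 was under 1 RPKM in every library, at 0.0239 and 0.0325 RPKM in WT and 0.480 and 0.267 RPKM in cKO, and was not tested. Tcf7l1 was at 19.0 and 21.9 RPKM in WT and 16.7 and 13.4 RPKM in cKO, with a log2 fold change of -0.42 (adjusted p = 0.0581). It passed as lower in 6 of 15 alternative fits, namely under the 3 rescalings, where the log2 fold change was between -0.79 and -0.71, with the filter at 5 RPKM, with a block that crossed the replicate numbers (added after the data were seen), and with cKO replicate 1 left out. Of the whole list of TCF/LEF factors and nuclear Wnt cofactors, 3 of 11 tested genes were higher and 1 lower, near the 35.9% and 6.48% of all tested genes. Ctnnb1, which encodes β-catenin, rose from 114.4 and 111.3 RPKM to 169.5 and 193.0 RPKM (adjusted p = 0.00511), and Bcl9l, a β-catenin coactivator, fell from 18.0 and 19.3 RPKM to 14.3 and 9.30 RPKM (adjusted p = 0.0313). Tle1, a Groucho corepressor, also passed as higher, with 7.35 and 7.21 RPKM in WT and 9.64 and 12.99 RPKM in cKO (adjusted p = 0.0306). The Tle1 call ended in 7 of 15 alternatives, among them the 3 rescalings, WT replicate 1 or 2 left out, and cKO replicate 2 left out. The Bcl9l call ended without the filter and when WT replicate 2 or cKO replicate 2 was left out, and the Ctnnb1 call with median-ratio scaling. The split of calls in this list moved to 1 higher and 5 lower with median-ratio scaling and to 2 higher and 5 lower with the other 2 rescalings. Over all 11197 tested genes the rescalings gave 1769 to 1885 higher and 1527 to 1818 lower.

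Genes that Wnt/β-catenin signaling commonly induces were described beside Tcf7l2. Of 9 tested, 4 were higher, against 35.9% of all tested genes, and 1 was lower, against 6.48%. These counts, from the RPKM as deposited, do not set the list apart. Under each rescaling 3 of the 9 were higher and 1 lower. Over all 11197 tested genes the rescalings gave 1769 to 1885 higher and 1527 to 1818 lower. The list as a whole was not tested. Notum, a secreted Wnt inhibitor, rose from 0.0824 and 0.265 RPKM to 4.44 and 3.86 RPKM (log2 fold change 2.13, limma adjusted p = 2.78e-04), Nkd2, an inhibitor of Dishevelled, from 0.730 and 0.930 RPKM to 6.73 and 6.00 RPKM (adjusted p = 2.89e-04), and Ccnd1, cyclin D1, from 4.53 and 4.67 RPKM to 11.8 and 13.1 RPKM (adjusted p = 9.43e-04). These 3 calls were kept at the limit of 0.05 in every alternative fit that tested them, and none of the 3 reached 1e-05 in the fit of the deposited values. Nkd1 also passed (adjusted p = 0.0316), but its call ended in 8 of 14 alternatives, among them the 3 rescalings and the omission of WT replicate 1, WT replicate 2, or cKO replicate 1. Apcdd1, another Wnt inhibitor, fell from 7.46 and 6.93 RPKM to 5.57 and 3.86 RPKM (adjusted p = 0.0478), a call that ended without the filter, with the replicate block, and when WT replicate 1, WT replicate 2, or cKO replicate 2 was left out. Axin2, a widely used reporter gene of the pathway, was at 0.640 and 0.674 RPKM in WT and 1.53 and 1.09 RPKM in cKO and missed the limit (adjusted p = 0.0525).

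**Figure D3:**
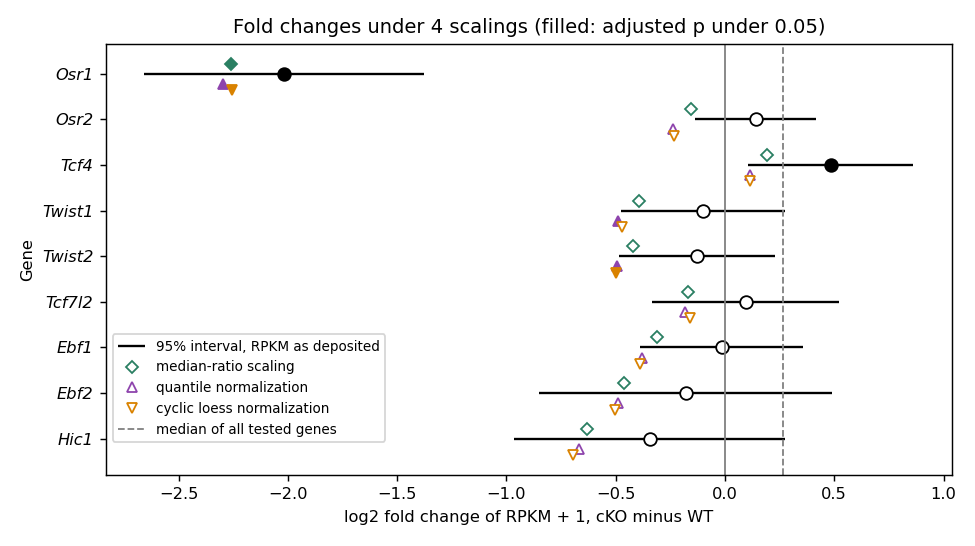
log2 fold change of RPKM + 1, cKO minus WT, for the 9 tested factors (limma; 2 libraries per group). Circles and lines give the estimate and its 95% interval from the RPKM as deposited, the other symbols the estimate under 3 rescalings, filled symbols an adjusted p under 0.05, and the dashed line the median of all tested genes at 0.27. Osr1 stands alone at -2.02 and is filled under every scaling, whereas Tcf4 is filled only for the RPKM as deposited.

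Set against Pdgfra within the same library, a ratio that a common factor on the library does not change, the factors divided differently. Osr1 stood at 10.1 and 9.62 RPKM per 100 RPKM of Pdgfra in WT and at 4.66 and 2.61 in cKO, so it was lower even than Pdgfra, with a ratio of 0.368 between the group means. Tcf21 went in the same direction, from 0.107 and 0.211 to 0.0955 and 0.0191, values that rest on few reads. The other 8 factors were higher relative to Pdgfra in both cKO libraries than in either WT library. Tcf4 rose most in this measure, from 13.6 and 14.0 to 35.3 and 43.2, and Hic1 least, from 13.5 and 13.0 to 24.1 and 17.2. For Osr2 the values were 19.4 and 15.1 in WT and 32.95 and 43.1 in cKO, and for Twist1 27.8 and 18.3 in WT and 31.2 and 55.8 in cKO. Pdgfra itself fell in these libraries (log2 fold change -0.98, limma adjusted p = 0.00580), so a gene with unchanged RPKM rises in this measure. Without the division, 56.8% of all tested genes were higher in cKO with no overlap. The share of all genes that rose relative to Pdgfra was not counted, so the 8 factors are not set apart from other genes. These ratios describe proportions and carry no test.

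Further transcription factors of mesenchyme were counted for context. Of 53 tested, 9 were higher, against 35.9% of all tested genes, and 8 were lower, against 6.48%. In all, 32 had a negative fold change, against 28.7% of all tested genes. The median log2 fold change of the 53 was -0.20, which lies 0.47 below the median gene. Under each of the 3 rescalings 39 had a negative fold change. The 28.7% does not apply there, since the median of all tested genes then lay between -0.02 and 0.01. With median-ratio scaling 6 were higher and 20 lower, and with quantile or cyclic loess normalization 6 were higher and 21 lower. Over all 11197 tested genes these rescalings gave 1769 to 1885 higher and 1527 to 1818 lower. The 4 with the smallest p were Mkx, Irx3, Shox2, and Foxf1. Mkx, a tendon regulator, rose from 0.352 and 0.206 RPKM to 5.48 and 3.19 RPKM (limma adjusted p = 9.44e-04), and Irx3, a homeobox factor, from 2.06 and 1.77 RPKM to 5.68 and 7.19 RPKM (adjusted p = 0.00155). Shox2, a homeobox factor of limb skeletal growth, fell from 18.2 and 17.8 RPKM to 8.95 and 8.36 RPKM (adjusted p = 0.00172). Foxf1, a forkhead factor of mesoderm, rose from 5.51 and 5.84 RPKM to 10.6 and 11.8 RPKM (adjusted p = 0.00341). All 4 calls were kept at the limit of 0.05 in every alternative fit that tested them, and none of the 4 reached 1e-05 in the fit of the deposited values. Prrx1, whose regulatory sequence drives the Prx1-Cre transgene, stood at 16.5 and 16.1 RPKM in WT and 16.7 and 9.76 RPKM in cKO, with overlapping groups and the lowest value again in cKO replicate 2 (adjusted p = 0.274; named after its values were seen).

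**Figure D4:**
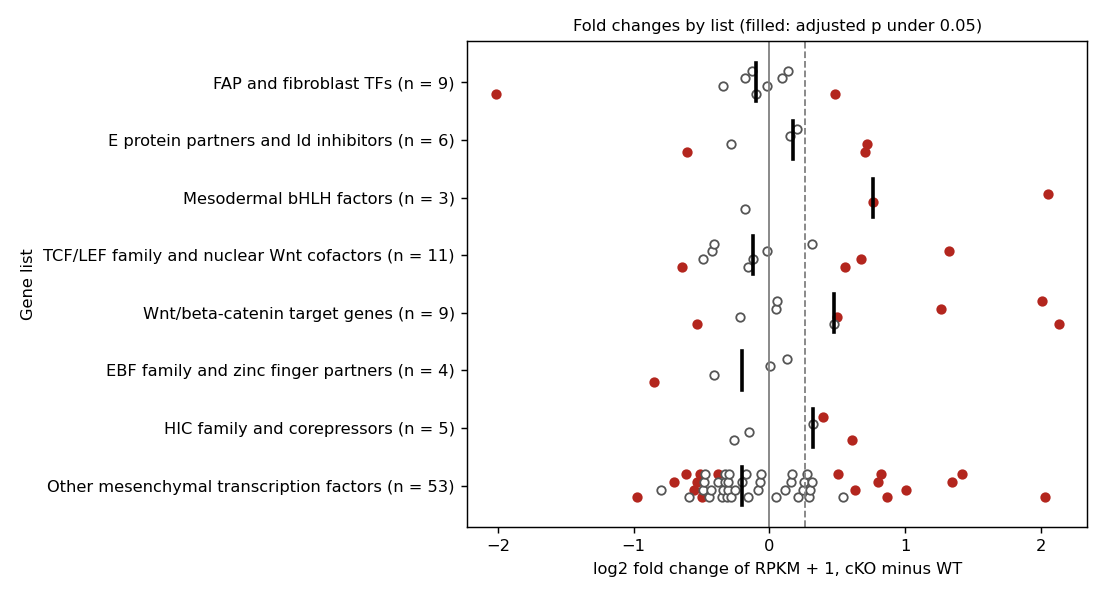
log2 fold change of RPKM + 1, cKO minus WT, of every tested gene in the 10 named factors and 7 related lists, with 1 point per gene, filled where adjusted p was under 0.05. Vertical bars mark list medians, the solid grey line 0, and the dashed line the median of all tested genes. Osr1 at -2.02 lies below every other gene shown, and the highest points, near 2, are Notum, Scx, Mkx, and Nkd2.

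The genes with a profile most like that of Osr1 were found by the distance between centered log2(RPKM + 1) values over the 4 libraries. Of 11196 other tested genes, 13 lay within 0.5 log2 units. The nearest was Slc10a6, a transporter of sulfated steroids, at a distance of 0.13, with 28.9 and 35.6 RPKM in WT and 8.98 and 5.16 RPKM in cKO. It was followed by Zbtb16, the zinc finger factor PLZF, at 0.19, with 14.9 and 19.7 RPKM in WT and 5.89 and 2.70 RPKM in cKO. Bmp4, a secreted signal of the BMP family, lay at 0.26, with 31.2 and 36.8 RPKM in WT and 9.47 and 6.41 RPKM in cKO. Ramp2, a partner of the calcitonin receptor-like receptor, and Nov, a matricellular protein also known as CCN3, lay at 0.27 each. All 5 were lower in both cKO libraries than in either WT library and lower in cKO replicate 2 than in cKO replicate 1. That order follows from choosing genes near the Osr1 profile and is not a separate result.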

How the data were processed

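RPKM values per RefSeq gene were deposited by the authors in a single table of 20027 genes, 1 accession each. The submitters' notes on processing list edgeR, bedtools, and TopHat2 2.0.9 as tools, and mm10 as well as mm9 as builds, with no roles. The gene annotation, the counting rule, and any use of strand are not given in the sources used here. Osr1, Tcf21, Twist2, Ebf1, and Ebf2 overlap annotated genes on the opposite strand, whose reads cannot be told apart if strand was not used. Depth was derived from the value of 1110 genes without reads, taking 1 read as 2.5 times that value, and GENCODE transcript lengths (M21, GRCm38), so read numbers are approximate. Positions are from GRCm38, which may not be the build used.

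log2(RPKM + 1) was fitted by lmFit and a trended eBayes of limma 3.58.1 in R 4.3.3, as a two-sided test of cKO minus WT over 11197 genes with at least 1 RPKM in 2 libraries, adjusted by Benjamini-Hochberg. The fit was tested on simulated data. Fold changes on this scale understate those of low genes. Titles number the males of each genotype, so libraries were treated as separate animals. Alternatives were pseudocounts of 0.1 and 0.5, no filter or 5 RPKM, 3 rescalings, eBayes without trend or robust, a replicate block, leaving out each library, and the limit of 1e-05 used in the study. All columns of values were used. Named were all members, up to 4 called members of each list with the smallest p (2 where none was called), and their family members. The 5 nearest profiles to the member with the smallest adjusted p were also named. Members and lists were chosen with earlier results of these data known.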

Additional observations from a re-analysis of the deposited data

How the results depend on the processing

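At the limit of 0.05 the fall of Osr1 passed in all 15 alternative fits and the rise of Tcf4 in 8. Neither passed at 1e-05 in the main fit of the deposited values. The count of factors lower in cKO was 1 and became 3 with quantile normalization, 2 with cyclic loess normalization, and 0 at the limit of 1e-05. The count of factors higher was 1 and became 0 without the filter, with each of the 3 rescalings, without a trend, and at 1e-05 (limma; at an unadjusted p under 0.05, 2 factors passed in the fit of the deposited values, 1 in each direction). Leaving out each library gave 1 to 3 factors lower and 0 to 1 higher, with 3 lower without cKO replicate 1, and 364 to 1221 genes lower and 2397 to 3611 genes higher over all genes. Over all genes, 726 lower and 4016 higher became 1527 and 1769 with median-ratio scaling, 1818 and 1777 with quantile normalization, 1710 and 1885 with cyclic loess normalization, and 0 and 5 at 1e-05 (978 genes were lower at an unadjusted p under 0.05).

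Changes of sign occurred only in named genes that had not passed. Median-ratio scaling, quantile normalization, and cyclic loess normalization gave log2 fold changes of -0.15, -0.24, and -0.23 for Osr2, -0.17, -0.18, and -0.16 for Tcf7l2, -0.13, -0.19, and -0.18 for Tcf3, and -0.083, -0.072, and -0.054 for Ebf4. Leaving out each library gave ranges of -0.12 to 0.31 for Tcf7l2, -0.29 to 0.090 for Twist1, -0.30 to 0.039 for Twist2, -0.21 to 0.18 for Ebf1, -0.66 to 0.30 for Ebf2, -0.77 to 0.084 for Hic1, -0.097 to 0.40 for Tcf3, and -0.078 to 0.34 for Ebf4. Of 692 values for 48 named genes, 556 kept direction and side of the limit, 103 lost the call, 11 gained it, and 22 changed sign. The causes were not tested.

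Whether the replicate numbers pair the libraries could not be settled. Deviations of the libraries numbered 1 from their group means had a correlation of -0.30 over 11197 genes. Number 1 was the shallower WT library (46.5 against 89.1 M reads) and the deeper cKO library (90.4 against 41.4 M reads). With depth crossed in this way, that correlation cannot show whether a batch was shared by number. The replicate block gave 1 factor lower and 1 higher, and 731 genes lower and 3552 higher. A crossed block, added after that correlation was seen, gave 1 and 1 factors and 1088 and 4807 genes. With 2 libraries per group the spread is estimated mostly from other genes.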
